A study of Mus musculus with 4 samples.

Results

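The DEAH-box helicase genes *Dhx37*, *Dhx15*, *Dhx9*, *Dhx36*, *Dhx30*, *Dhx8*, *Dhx33*, *Dhx57*, *Dhx29* and *Dhx38* were described in single-nucleus RNA from mouse testis. They were found in the files by gene symbol, with no measured value in the rule, and all 10 were among the 55357 genes of the count tables. Nuclei came from whole testes of mice 8 weeks of age on a C57BL/6-based background, with 2 wild-type (WT) libraries and 2 Dhx37-/- libraries. The Dhx37-/- mice carried *Dhx37* alleles with loxP sites on both sides of exon 2, removed by a Cre that is driven by the promoter of *Amh*, a gene of Sertoli cells. The WT mice were littermates without the deletion. The genotype therefore applies to Sertoli cells, and the other cells of a Dhx37-/- testis keep an intact gene. The comparisons asked in which testis cells each helicase gene is transcribed and whether its level differed between the genotypes.

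DEAH-box helicases are motor proteins that use ATP or other nucleotides to move along RNA, which lets them unwind duplexes and pull RNA out of RNA-protein complexes. Several of them are switched on by partner proteins with a G-patch, a short glycine-rich segment, and some act in the spliceosome while others act in the nucleolus, where ribosomes are assembled. DHX37 is the helicase that releases the U3 snoRNA from the precursor of the small ribosomal subunit, with UTP14 as its activator. Variants of the human gene are known from disorders of testis development.

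The members share the catalytic helicase core, and its box, after which the family is named, is shown here. The sequences were read from the GENCODE transcripts of build GRCm38, 5′ to 3′ on the coding strand, and the coordinates are those of the 12 bases of the box, which stand in capitals. In *Dhx29* the box is split by an intron, which its coordinates include.
*Dhx37* (chr5:125426717-125426728, minus strand, exon 8): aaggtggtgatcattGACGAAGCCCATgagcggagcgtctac
*Dhx15* (chr5:52171496-52171507, minus strand, exon 4): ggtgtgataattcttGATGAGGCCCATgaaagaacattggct
*Dhx9* (chr1:153468889-153468900, minus strand, exon 14): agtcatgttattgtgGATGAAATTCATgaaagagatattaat
*Dhx36* (chr3:62493854-62493865, minus strand, exon 8): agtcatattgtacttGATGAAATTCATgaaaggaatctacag
*Dhx30* (chr9:110087673-110087684, minus strand, exon 12): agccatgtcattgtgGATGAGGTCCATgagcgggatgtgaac
*Dhx8* (chr11:101752140-101752151, plus strand, exon 14): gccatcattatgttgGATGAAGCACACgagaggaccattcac
*Dhx33* (chr11:70999808-70999819, minus strand, exon 3): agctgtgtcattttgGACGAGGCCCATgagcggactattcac
*Dhx57* (chr17:80267532-80267543, minus strand, exon 8): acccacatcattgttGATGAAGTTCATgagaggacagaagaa
*Dhx29* (chr13:112948350-112952808, plus strand, exon 12 into exon 13): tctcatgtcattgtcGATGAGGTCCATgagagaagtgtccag
*Dhx38* (chr8:109556065-109556076, minus strand, exon 14): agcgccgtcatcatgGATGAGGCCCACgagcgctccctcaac
The box was found in the reading frame of all 10 members. The search took the first run of GAC or GAT, GAA or GAG, any codon, and CAC or CAT behind the codons of a nucleotide-binding loop. The codons other than the third were thus fixed by the search. The third was free, and it began with GC in 5 members (*Dhx37*, *Dhx15*, *Dhx8*, *Dhx33* and *Dhx38*). It began with AT in 2 (*Dhx9* and *Dhx36*) and with GT in 3 (*Dhx30*, *Dhx57* and *Dhx29*).

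*Dhx37* lies at chr5:125413858-125434121 on the minus strand (GRCm38) and has 27 exons. Exon 2, which the Cre removes, is shown because its position decides what these counts can and cannot see. It spans chr5:125431597-125431766, all of it is shown in lower case, and it lies ahead of the box in exon 8.
*Dhx37* exon 2: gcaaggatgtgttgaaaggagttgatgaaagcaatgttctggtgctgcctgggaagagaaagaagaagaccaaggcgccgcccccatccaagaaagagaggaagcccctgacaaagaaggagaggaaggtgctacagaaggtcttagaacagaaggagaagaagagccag
Its 170 bases leave a remainder of 2 when divided by 3. It ends 4403 bases before the 3′ end of the transcript and 17739 bases before that end in the genome. The libraries were primed at poly(A) stretches and count 3′ ends, so a *Dhx37* UMI (unique molecular identifier, 1 captured RNA molecule) does not show whether exon 2 was present, and the *Dhx37* level is no check of the deletion.

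The libraries held 8295 to 10022 nuclei after filtering, with a median of 3302 to 4158 UMIs per nucleus. Nuclei were placed in classes by their UMIs for markers of testis cell types, none of them a helicase, and 28067 of 37034 nuclei (75.8%) were placed. Each class is called "like" its cell type, since it rests on markers whose limits were set after the data had been seen. The classes that could be compared were Sertoli-like, Leydig-like, macrophage-like and fibroblast-like nuclei of the somatic lineages and, for the germ line, in order of development, spermatogonia-like, early meiotic-like and spermatocyte-like nuclei followed by the round and the elongating spermatid-like class. Sertoli-like nuclei numbered 68 and 17 in WT replicates 1 and 2 and 154 and 241 in Dhx37-/- replicates 1 and 2, and their summed Sertoli markers reached 3496 to 4088 CPM (UMIs over all UMIs of the class in that library, scaled to the usual unit of depth-corrected counts) with none of the 15 markers at 0. The same markers placed these nuclei, so their sums are no independent check of the class. Elongating spermatid markers reached 1873 and 2194 CPM in the WT Sertoli-like sums and 4817 and 3200 CPM in the Dhx37-/- sums. In the early meiotic-like class, the cluster of that name held 70.4% and 54.8% of WT nuclei, against 89.5% and 99.1% for Dhx37-/-. Cluster make-up also differed between genotypes in other germ classes: the early meiotic cluster held 72.7% and 78.3% of WT and 92.3% and 98.3% of Dhx37-/- spermatogonia-like nuclei, the spermatocyte cluster 38.1% and 43.3% against 53.9% and 56.0% of spermatocyte-like nuclei, and the elongating spermatid cluster 67.6% and 66.6% against 48.9% and 58.5% of elongating spermatid-like nuclei. Of the 4088 spermatocyte-like nuclei, 1926 (47.1%) lay in the spermatocyte cluster. Another 958 lay in round spermatid clusters, 348 in elongating spermatid clusters and 825 in unnamed clusters. The steps into and out of the spermatocyte-like class rest on this mixed class. Pairs of libraries shared 19 to 29 cell barcodes.

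**Figure D1:**
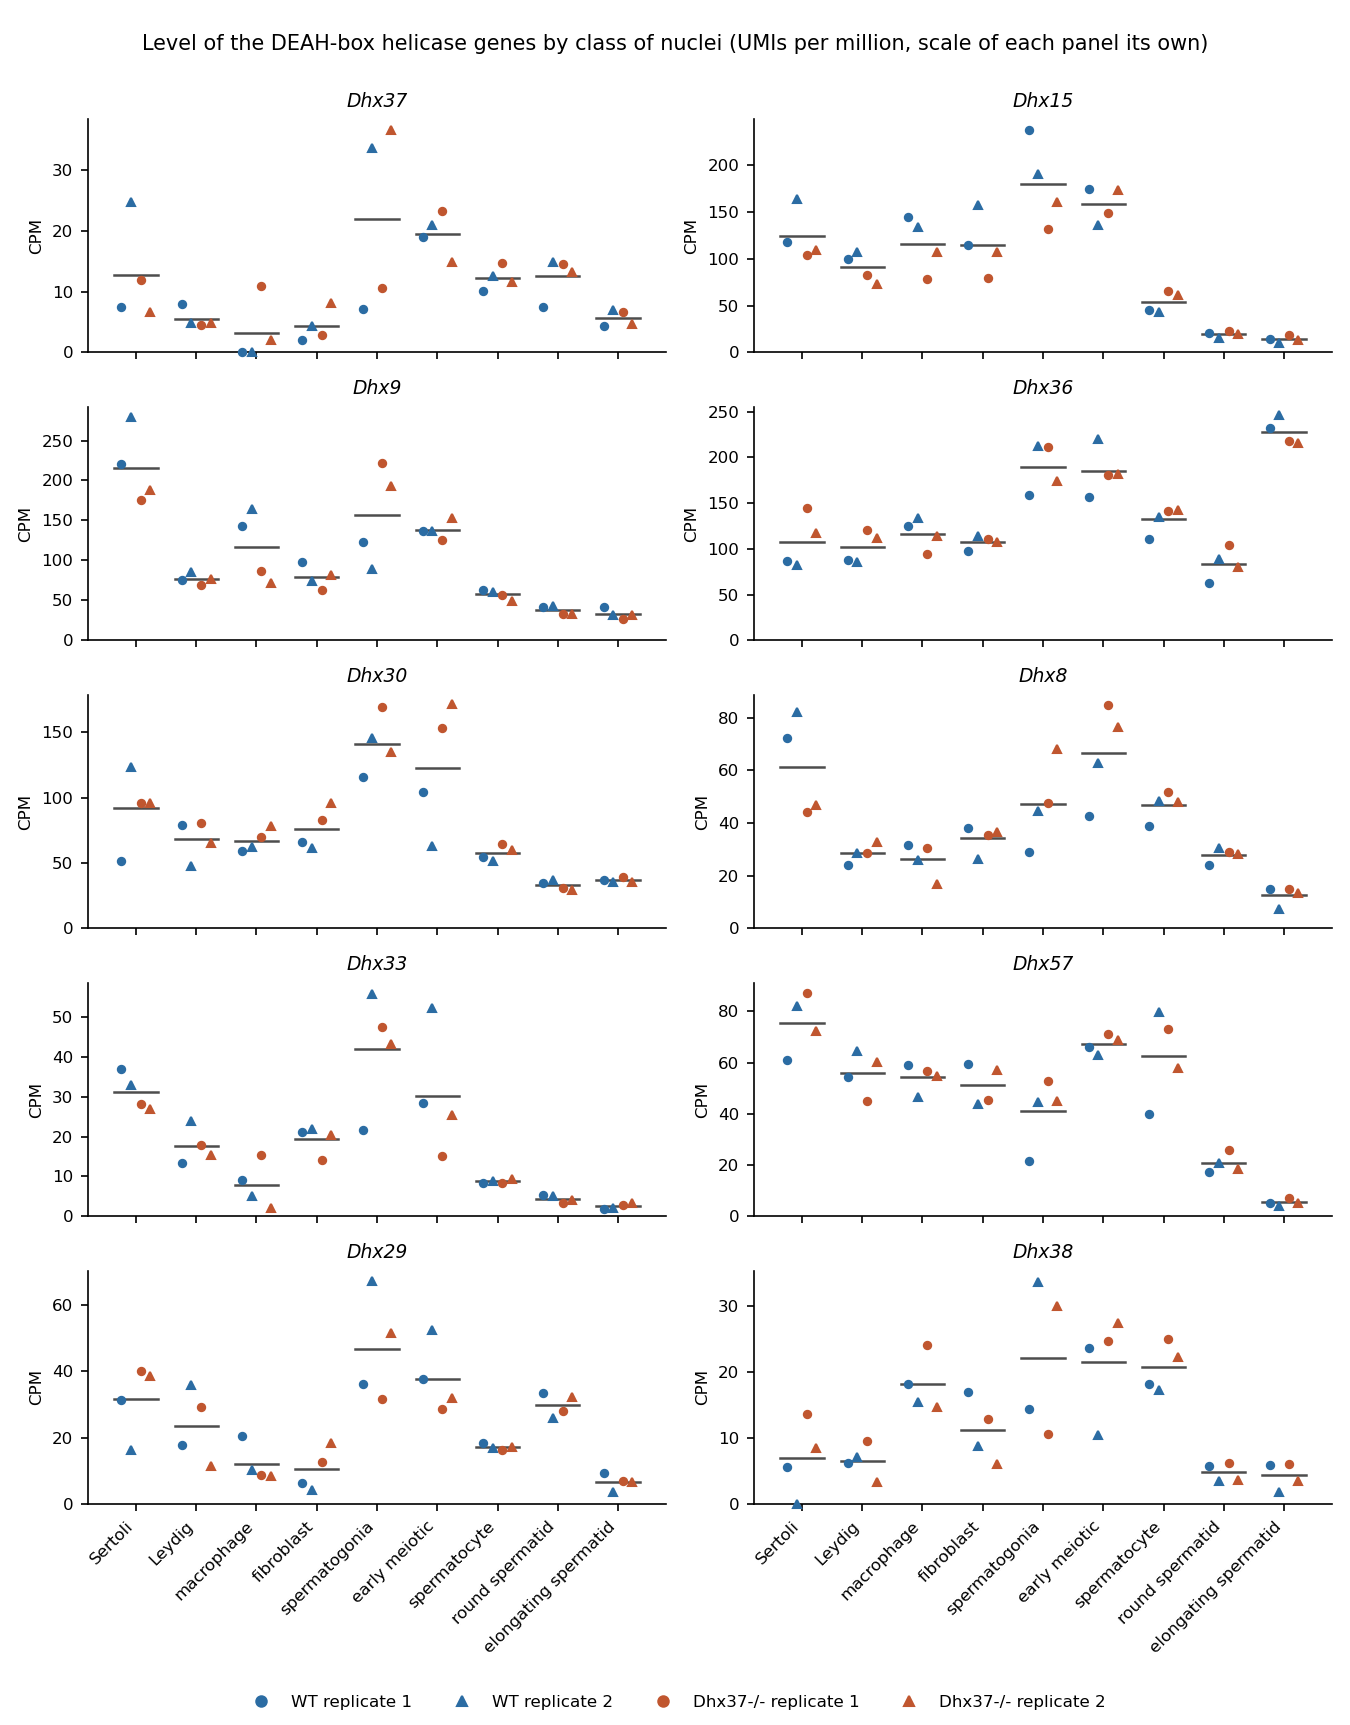
Level of each helicase gene, in CPM, in the 9 classes of nuclei that were compared. Each point is 1 library (blue WT, orange Dhx37-/-, circle replicate 1, triangle replicate 2) and each line the mean of 4 libraries. *Dhx36* is highest in elongating spermatid-like nuclei, at 216 to 246 CPM, and *Dhx15* has its lowest level there, at 9.67 to 18.1 CPM.

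*Dhx37* had its higher mean levels in early germ line classes and its lower ones in interstitial classes. Its mean was 22.0 ± 15.2 CPM in spermatogonia-like nuclei, 19.5 ± 3.53 CPM in early meiotic-like nuclei, 12.7 ± 8.33 CPM in Sertoli-like nuclei, 12.5 ± 3.41 CPM in round spermatid-like nuclei and 12.2 ± 1.93 CPM in spermatocyte-like nuclei (SD, n = 4 libraries). It was 5.66 ± 1.28 CPM in elongating spermatid-like, 5.53 ± 1.65 CPM in Leydig-like, 4.37 ± 2.68 CPM in fibroblast-like and 3.26 ± 5.21 CPM in macrophage-like nuclei (SD, n = 4). In that order, 7 of the 8 neighbouring pairs overlapped between libraries, and the step from spermatocyte-like to elongating spermatid-like nuclei was the 1 that did not.

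The counts behind these levels were small outside the large germ classes. In spermatogonia-like nuclei *Dhx37* had 1, 3, 2 and 22 UMIs in WT replicate 1, WT replicate 2, Dhx37-/- replicate 1 and Dhx37-/- replicate 2, an order kept for all values given by library. The 2 WT macrophage-like sums held no *Dhx37* UMI, which allows a level of up to 6.80 and 15.5 CPM (3 UMIs, counting error only), and the Dhx37-/- sums held 5 and 1. In round spermatid-like nuclei it had 89, 195, 119 and 235 UMIs, or 7.51, 14.8, 14.5 and 13.2 CPM, with WT replicate 1 below the other libraries.

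**Figure D2:**
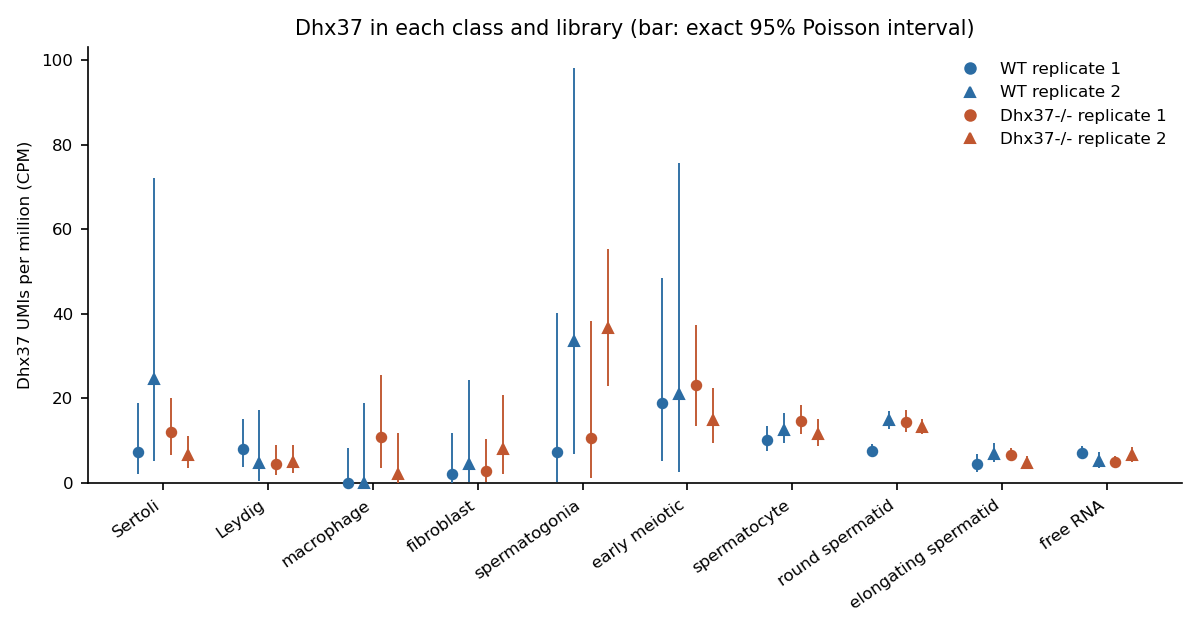
*Dhx37* level (CPM) in each class and in free RNA, by library (blue WT, orange Dhx37-/-), with exact 95% Poisson intervals that cover counting error only. The intervals of the 2 genotypes overlap in the Sertoli-like class, where 3 to 14 UMIs stand behind each point.

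Between classes, *Dhx37* was lower in somatic than in germ classes, by -1.26 ± 0.23 on the log2 scale (SE, edgeR adjusted p = 3.0e-06), and lower in all 4 libraries. Within the somatic classes it was higher in Sertoli-like nuclei than in the mean of the other somatic classes compared (Leydig-like, macrophage-like and fibroblast-like), by 1.22 ± 0.41 (SE, edgeR adjusted p = 0.013), in 4 of 4 libraries. That call did not hold without WT replicate 2 (0.85, edgeR adjusted p = 0.13) or with doublets removed (0.75, edgeR adjusted p = 0.21). Single classes could lie above the Sertoli-like level. Leydig-like nuclei did so in WT replicate 1 (8.00 against 7.40 CPM) and fibroblast-like nuclei in Dhx37-/- replicate 2 (8.14 against 6.65 CPM). In peritubular myoid-like nuclei, which the Sertoli-like comparison leaves out, *Dhx37* was at 0, 0, 8.92 and 17.0 CPM, from 6 UMIs in all. It was above the Sertoli-like 6.65 CPM in Dhx37-/- replicate 2 and below the Sertoli-like level in the other libraries. *Dhx37* fell from round to elongating spermatid-like nuclei by 1.22 ± 0.23 on the log2 scale (SE, edgeR adjusted p = 5.4e-06), with 0 of 4 libraries higher in the elongating class. From spermatocyte-like to round spermatid-like nuclei the fit gave 0.74 ± 0.22 (SE, edgeR adjusted p = 0.0026), while the CPM were nearly equal and 2 of 4 libraries were higher. The value was 0.0028 without TMM normalization (edgeR adjusted p = 0.99), although *Dhx37* stood 0.54 above the median of all genes with TMM and 0.53 above it without. The call was also lost without either Dhx37-/- library (edgeR adjusted p = 0.052 and 0.11) and with clusters in place of classes (0.37, edgeR adjusted p = 0.13).

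In Sertoli-like nuclei, the cells in which the Cre acts, *Dhx37* did not differ detectably between genotypes at this depth. It had 4, 3, 14 and 14 UMIs, or 7.40, 24.7, 11.9 and 6.65 CPM. WT replicate 2, with 17 nuclei and 3 UMIs (95% Poisson interval 5.09 to 72.1 CPM), gave the highest value and WT replicate 1 lay between the Dhx37-/- libraries, so the genotypes overlapped. The difference was -0.42 ± 0.77 on the log2 scale (SE, edgeR adjusted p = 0.92), and it was -1.43 without WT replicate 1 and 0.13 without WT replicate 2. RNA from outside the nucleus made up 10.8%, 6.08%, 7.98% and 7.30% of Sertoli-like UMIs, judged by protamine and transition protein transcripts, which corresponds to 0.412, 0.0385, 0.46 and 1.01 *Dhx37* UMIs. With 2 libraries per genotype an exact permutation test cannot go below p = 0.33, and the labels call the libraries biological replicates without saying which animals they came from.

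*Dhx37* was tested between genotypes in 3 other classes. Its difference was 0.16 ± 0.31 in spermatocyte-like, 0.27 ± 0.34 in round spermatid-like and, with the opposite sign, -0.13 ± 0.39 in elongating spermatid-like nuclei (log2, SE, edgeR adjusted p = 0.81 to 0.91), and 0.07 ± 0.33 over all nuclei. In the other 5 classes its counts did not pass the filter on low counts, so it was not tested there. Sertoli-like nuclei against the mean of the other classes gave a difference of genotype differences of -1.36 ± 0.92 (log2, SE, edgeR adjusted p = 1.0).

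Among the other members tied to the nucleolus and ribosome assembly, *Dhx33*, a nucleolar helicase linked to rRNA transcription, followed early germ and Sertoli-like nuclei. It was at 37.0, 32.9, 28.2 and 27.1 CPM in Sertoli-like nuclei, against 8.22, 8.87, 8.40 and 9.39 CPM in spermatocyte-like and 1.76, 2.07, 2.90 and 3.34 CPM in elongating spermatid-like nuclei. Every Sertoli-like value was above every spermatocyte-like value. *Dhx33* was higher in Sertoli-like than in the other somatic classes compared by 1.30 ± 0.26 (log2, SE, edgeR adjusted p = 3.2e-05). In peritubular myoid-like nuclei, which that comparison leaves out, it was at 25.8, 0, 8.92 and 39.6 CPM, from 17 UMIs in all, and the 2 classes overlapped. *Dhx33* fell from early meiotic-like to spermatocyte-like nuclei by 1.27 ± 0.30 on the log2 scale (edgeR adjusted p = 0.00025). A further fall into elongating spermatid-like nuclei, by 0.82 ± 0.25 on the log2 scale (edgeR adjusted p = 0.0035), was lost without either WT library (edgeR adjusted p = 0.11 and 0.080).

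The spliceosomal members are *Dhx15*, which takes the spliceosome apart and also works in ribosome assembly, *Dhx8*, which releases the spliced mRNA, and *Dhx38*, which drives the remodelling before exon ligation. *Dhx15* was at 238, 190.3, 132 and 161 CPM in spermatogonia-like nuclei and at 175, 136, 149 and 174 CPM in early meiotic-like nuclei. It then stood at 45.1, 43.4, 65.5 and 61.3 CPM in spermatocyte-like, 20.9, 15.4, 22.5 and 19.8 CPM in round spermatid-like and, last, 14.8, 9.67, 18.1 and 12.9 CPM in elongating spermatid-like nuclei. The early meiotic-like, spermatocyte-like and round spermatid-like values did not overlap with one another. *Dhx15* fell by 1.34 ± 0.20 on the log2 scale into spermatocyte-like nuclei (SE, edgeR adjusted p = 1.7e-07) and by 0.72 ± 0.18 into round spermatid-like nuclei (edgeR adjusted p = 0.00058). The mean of the somatic classes was above that of the germ classes by 1.04 ± 0.10 (edgeR adjusted p = 5.5e-13). This did not hold for each germ class. Mean *Dhx15* ran from 91.1 CPM in Leydig-like to 124 CPM in Sertoli-like nuclei among the somatic classes compared. It was higher in spermatogonia-like and early meiotic-like nuclei, at 180 and 159 CPM. With clusters in place of classes the fall into spermatocyte-like nuclei was smaller, at -0.64 for *Dhx15* and -0.60 for *Dhx33*, and both calls held. The last step, a fall of 0.58 ± 0.19 into elongating spermatid-like nuclei (edgeR adjusted p = 0.0071), was lost with DESeq2, with no filter on low counts and without WT replicate 1 or Dhx37-/- replicate 2.

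*Dhx8* was at 39.0, 48.6, 51.9 and 47.8 CPM in spermatocyte-like nuclei. It stood at 24.0, 30.5, 28.9 and 28.2 CPM in round spermatid-like and, last, 14.8, 7.26, 14.9 and 13.5 CPM in elongating spermatid-like nuclei, with no overlap, and it fell there by 1.25 ± 0.19 on the log2 scale (SE, edgeR adjusted p = 1.1e-07). From spermatocyte-like to round spermatid-like nuclei, where its CPM did not overlap either, *Dhx8* was at -0.0017 with TMM and -0.75 without it. *Dhx38* was at 18.1, 17.3, 25.02 and 22.2 CPM in spermatocyte-like and 5.73, 3.49, 6.21 and 3.71 CPM in round spermatid-like nuclei, a fall of 1.39 ± 0.22 on the log2 scale (edgeR adjusted p = 2.4e-07), with no overlap. The difference between the 2 genes was not tested. In Sertoli-like nuclei *Dhx38* had only 3, 0, 16 and 18 UMIs, and *Dhx8* was higher there than in the other somatic classes compared by 1.03 ± 0.21 (log2, SE, edgeR adjusted p = 5.6e-05). *Dhx8* was at 72.2, 82.2, 44.4 and 47.0 CPM in Sertoli-like nuclei. In peritubular myoid-like nuclei, which that comparison leaves out, it was at 40.6, 30.7, 35.7 and 56.5 CPM, from 35 UMIs in all, and the 2 classes overlapped.

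*Dhx9* and *Dhx36* both unwind structured nucleic acids, *Dhx9* on RNA and DNA and *Dhx36* above all on G-quadruplexes. *Dhx9* had its highest mean in Sertoli-like nuclei, at 220.2, 279, 176 and 188 CPM, against 75.5, 86.1, 69.7 and 77.0 CPM in Leydig-like nuclei. Its Sertoli-like level was above that of the other somatic classes by 1.37 ± 0.17 (log2, SE, edgeR adjusted p = 1.7e-09), in 4 of 4 libraries, and it fell by 1.06 ± 0.21 on the log2 scale from early meiotic-like to spermatocyte-like nuclei (edgeR adjusted p = 3.3e-05). *Dhx36* was at 62.3, 89.4, 104 and 79.9 CPM in round spermatid-like nuclei and at 232, 246, 217 and 216 CPM in elongating spermatid-like nuclei. The elongating values lay above every round spermatid-like value in all 4 libraries. The rise was 1.39 ± 0.16 on the log2 scale (SE, edgeR adjusted p = 1.8e-10), and it was between 1.37 and 1.61 under the 11 alternatives run. *Dhx36* was the 1 member called higher at that step.

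The last members act on translation and in mitochondria. *Dhx29*, which helps ribosomes scan structured mRNA leaders, was at 18.3, 16.8, 16.4 and 17.3 CPM in spermatocyte-like, 33.5, 26.1, 28.1 and 32.3 CPM in round spermatid-like and, last, 9.25, 3.63, 6.86 and 6.68 CPM in elongating spermatid-like nuclei. No value of the round class overlapped with the class before or after it. *Dhx29* rose by 1.54 ± 0.21 into round spermatid-like nuclei (log2, SE, edgeR adjusted p = 1.2e-08) and fell by 2.29 ± 0.22 on the log2 scale into elongating spermatid-like nuclei (edgeR adjusted p = 7.0e-13), and it was higher in Sertoli-like than in the other somatic classes compared by 1.503 ± 0.27 (edgeR adjusted p = 5.9e-06), in 3 of 4 libraries. *Dhx29* was at 31.5, 16.4, 40.1 and 38.5 CPM in Sertoli-like nuclei. In peritubular myoid-like nuclei, which that comparison leaves out, it was at 44.2, 30.7, 11.9 and 33.9 CPM, from 24 UMIs in all, and the 2 classes overlapped. Its fall into spermatocyte-like nuclei, by 0.71 ± 0.29 on the log2 scale (edgeR adjusted p = 0.031), was lost in 7 of 11 alternatives.

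*Dhx57*, whose role is less well known, was at 39.8, 79.9, 73.3 and 58.1 CPM in spermatocyte-like, 17.3, 20.8, 26.0 and 18.6 CPM in round spermatid-like and, last, 5.29, 4.15, 7.12 and 5.18 CPM in elongating spermatid-like nuclei. Each step was lower in all 4 libraries, by 0.86 ± 0.17 and by 1.99 ± 0.19 on the log2 scale (SE, edgeR adjusted p = 1.5e-05 and 5.6e-13). *Dhx57* was also called higher in Sertoli-like than in the other somatic classes compared, by 0.63 (log2), a call lost without Dhx37-/- replicate 1. It was at 61.1, 82.2, 87.1 and 72.2 CPM in Sertoli-like nuclei. In peritubular myoid-like nuclei, which that comparison leaves out, it was at 73.8, 0, 74.3 and 67.8 CPM, from 57 UMIs in all, and the 2 classes overlapped. *Dhx30*, a helicase of mitochondrial ribosome assembly, was at 104, 62.9, 153 and 172 CPM in early meiotic-like and 54.2, 51.1, 64.4 and 59.8 CPM in spermatocyte-like nuclei, and it fell by 1.01 ± 0.20 on the log2 scale (SE, edgeR adjusted p = 3.6e-05). WT replicate 2 of the early meiotic-like class, with 6 UMIs, overlapped with the spermatocyte-like values.

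**Figure D3:**
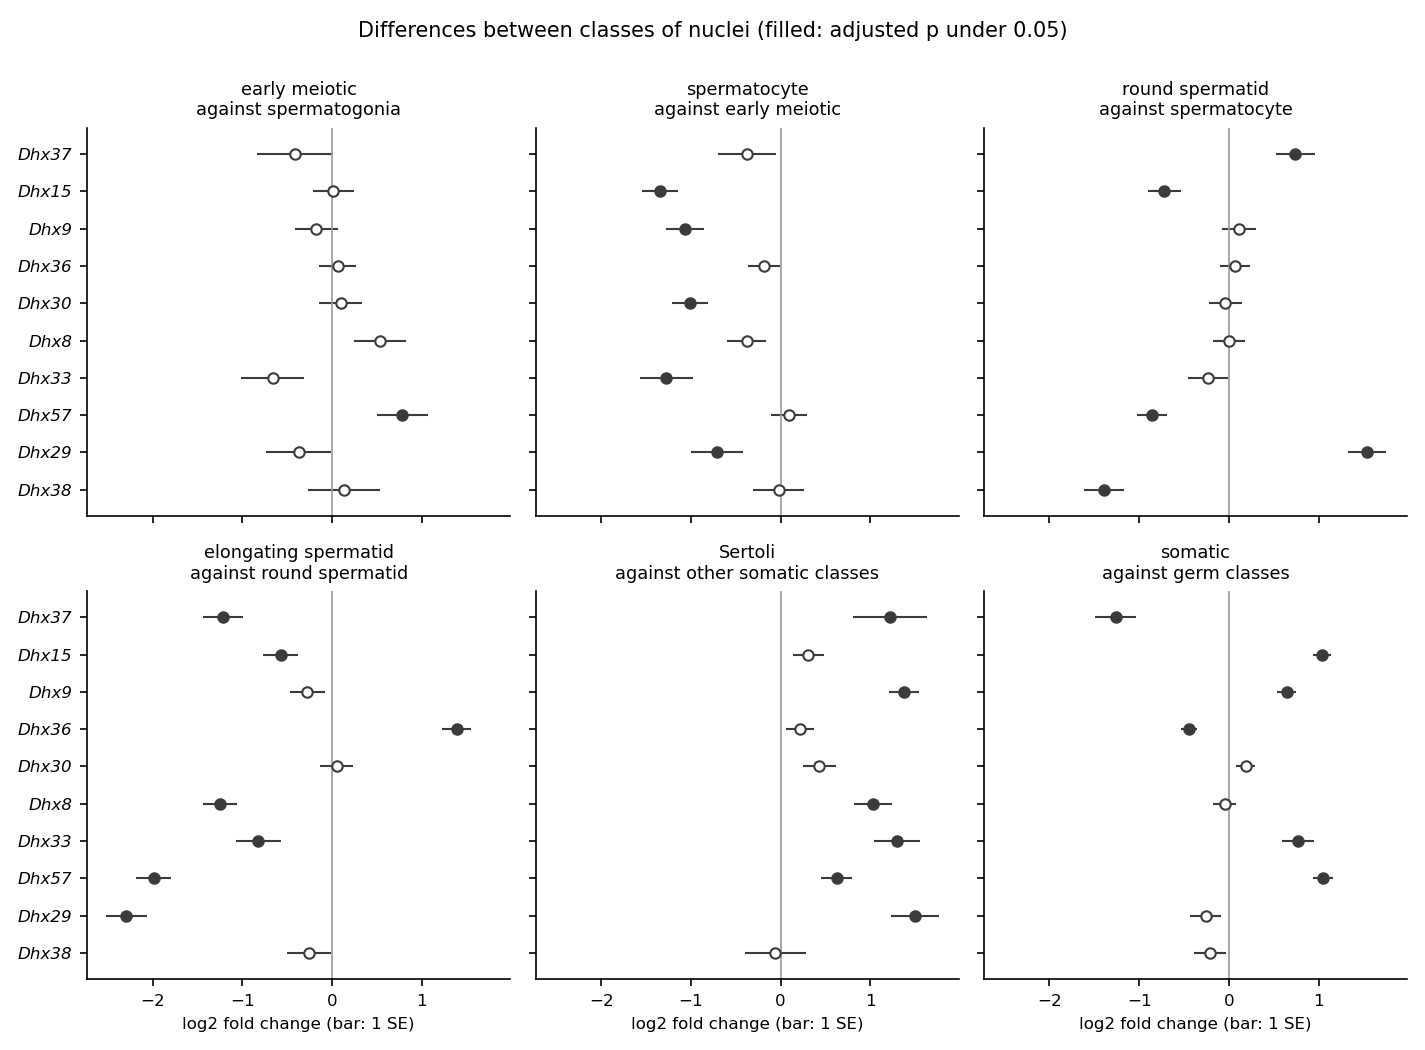
Log2 fold change of each helicase gene in 6 differences between classes, with 1 SE (edgeR, 4 libraries, TMM scaling). Filled points have an adjusted p under 0.05. *Dhx36* and *Dhx29* lie furthest to the right and left from round to elongating spermatid-like nuclei, at 1.39 and -2.29.

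Counted over the family, 30 of 60 tests between classes passed, and 23 of these 30 calls held under every alternative that was run. Testis classes differ in most of their genes, so the counts are set beside the share of all genes called. From spermatogonia-like to early meiotic-like nuclei 1 of 10 members passed, and was higher (22.3% of all genes called, 10.4% higher), and that call, *Dhx57* at 0.78 ± 0.28 (log2, SE, edgeR adjusted p = 0.041), was lost in 8 of 10 alternatives. Into spermatocyte-like nuclei 5 of 10 were lower and none was higher (62.1% of all genes called, 38.0% higher and 24.1% lower). Into round spermatid-like nuclei 2 were higher and 3 lower (65.7% called, 38.5% higher and 27.1% lower), and into elongating spermatid-like nuclei 1 was higher and 6 were lower (66.2% called, 31.8% higher and 34.3% lower). In Sertoli-like against other somatic nuclei 6 of 10 were higher and none lower (44.0% called, 23.6% higher and 20.4% lower), and in somatic against germ classes 4 were higher and 2 lower (78.5% called, 34.1% higher and 44.4% lower). The median of the members was -0.54, -0.02, -0.70 and 0.83 for the last 3 germ line steps in turn and for Sertoli-like nuclei, where that of all genes was 0.33, 0.20, 0.05 and -0.13. The share of members called in either direction was below that of all genes at every germ line step but the last where 7 of 10 stood beside 66.2%, and the counts are a description of the family.

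The scaling between classes moved these values together. From spermatocyte-like to round spermatid-like nuclei the median of all genes was 0.20 with TMM, -0.53 without it and 0.07 with DESeq2, and the share of calls that were higher was 58.7%, 29.8% and 53.1%. Without TMM 8 members were lower and 1 was higher at that step, with *Dhx15* at -1.47, *Dhx38* at -2.14, *Dhx57* at -1.60 and *Dhx29* at 0.79. The share of higher calls also moved from 46.6% with TMM to 36.9% without it in early meiotic-like against spermatogonia-like nuclei and from 53.7% to 42.6% in Sertoli-like against other somatic nuclei. No member called with TMM changed its direction under either other scaling.

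Between genotypes, no member was called in any class. Of 74 pairs of member and class that passed the filter on low counts, 0 passed with edgeR (6 at an unadjusted p under 0.05). DESeq2 gave an adjusted p for 69 of them, and 0 passed (1 unadjusted). Over all nuclei 0 of 10 passed with either tool (0 unadjusted with each). The share of all genes called was 0.0% in Sertoli-like, Leydig-like, spermatocyte-like and elongating spermatid-like nuclei and over all nuclei, 0.046% in macrophage-like, 0.0217% in fibroblast-like and 0.00881% in round spermatid-like nuclei. It was 7.79% in spermatogonia-like nuclei (0.317% higher and 7.47% lower in Dhx37-/- libraries) and 15% in early meiotic-like nuclei (4.8% higher and 10.2% lower). These shares depended on the tool and the libraries. In spermatogonia-like and early meiotic-like nuclei DESeq2 called 182 and 548 genes, where edgeR called 393 and 1388. DESeq2 called 2.66% of all genes in spermatocyte-like nuclei and 0.902% over all nuclei, and edgeR called 20.1% and 24.7% in spermatocyte-like nuclei, 19.4% and 6.26% over all nuclei and 0.338% and 3.41% in Sertoli-like nuclei without WT replicate 1 and without WT replicate 2. The difference between Sertoli-like nuclei and other classes was called for 0 of 10 members by edgeR (2 unadjusted, 0.0195% of all genes called) and by DESeq2 (1 unadjusted).

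In Sertoli-like nuclei the genotypes did not overlap in CPM for 6 of the 9 members tested (40.1% of all genes tested there), 4 of them lower and 2 higher in Dhx37-/- libraries (14.8% and 25.3% of all genes), and none passed the test. *Dhx8* stood at 72.2 and 82.2 CPM for WT, against 44.4 and 47.0 CPM for Dhx37-/-, a difference of -0.80 ± 0.32 (log2, SE, edgeR adjusted p = 0.52). *Dhx36* was at 87.0 and 82.2 CPM against 144 and 118 CPM, a difference of 0.51 ± 0.30 (edgeR adjusted p = 0.66). *Dhx9*, at 220.2 and 279 CPM against 176 and 188 CPM, differed by -0.49 ± 0.28 (edgeR adjusted p = 0.64). *Dhx15* and *Dhx33* were also lower in both Dhx37-/- libraries. *Dhx29*, at 31.5 and 16.4 CPM against 40.1 and 38.5 CPM, was higher in both (0.38 ± 0.41, edgeR adjusted p = 0.83), as was *Dhx38*, which was not tested there, at 5.55 and 0 CPM against 13.7 and 8.55 CPM. In WT replicate 2 these values rest on 0 to 34 UMIs.

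In other classes *Dhx9* had the smallest unadjusted p. It was at 143 and 165 CPM in WT and 87.4 and 71.6 CPM in Dhx37-/- macrophage-like nuclei, a difference of -0.95 ± 0.27 (log2, SE, edgeR adjusted p = 0.18). In spermatogonia-like nuclei it went the other way, with 123 and 89.5 CPM in WT against 222 and 193 CPM in Dhx37-/- libraries, a difference of 0.75 ± 0.35 (edgeR adjusted p = 0.27). *Dhx15* was lower in Dhx37-/- libraries in both classes. It was at 145 and 134 CPM in WT and 78.6 and 107 CPM in Dhx37-/- macrophage-like nuclei (-0.61 ± 0.27, edgeR adjusted p = 0.43). In spermatogonia-like nuclei, with the values given above, it differed by -0.69 ± 0.32 (edgeR adjusted p = 0.26). *Dhx30* was at 104 and 62.9 CPM in WT and 153 and 172 CPM in Dhx37-/- early meiotic-like nuclei (0.80 ± 0.33, edgeR adjusted p = 0.12). Cluster make-up differed between genotypes in the spermatogonia-like and early meiotic-like classes, and its part in these values was not tested. The macrophage cluster held 98.6% to 100% of macrophage-like nuclei in each library. RNA from outside the nucleus made up 30.4%, 17.0%, 16.2% and 16.7% of macrophage-like UMIs, judged as for Sertoli-like nuclei. In free RNA, described below, *Dhx9* was at 99.3, 42.1, 33.7 and 48.0 CPM. The part of such RNA in the macrophage-like values was not tested.

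**Figure D4:**
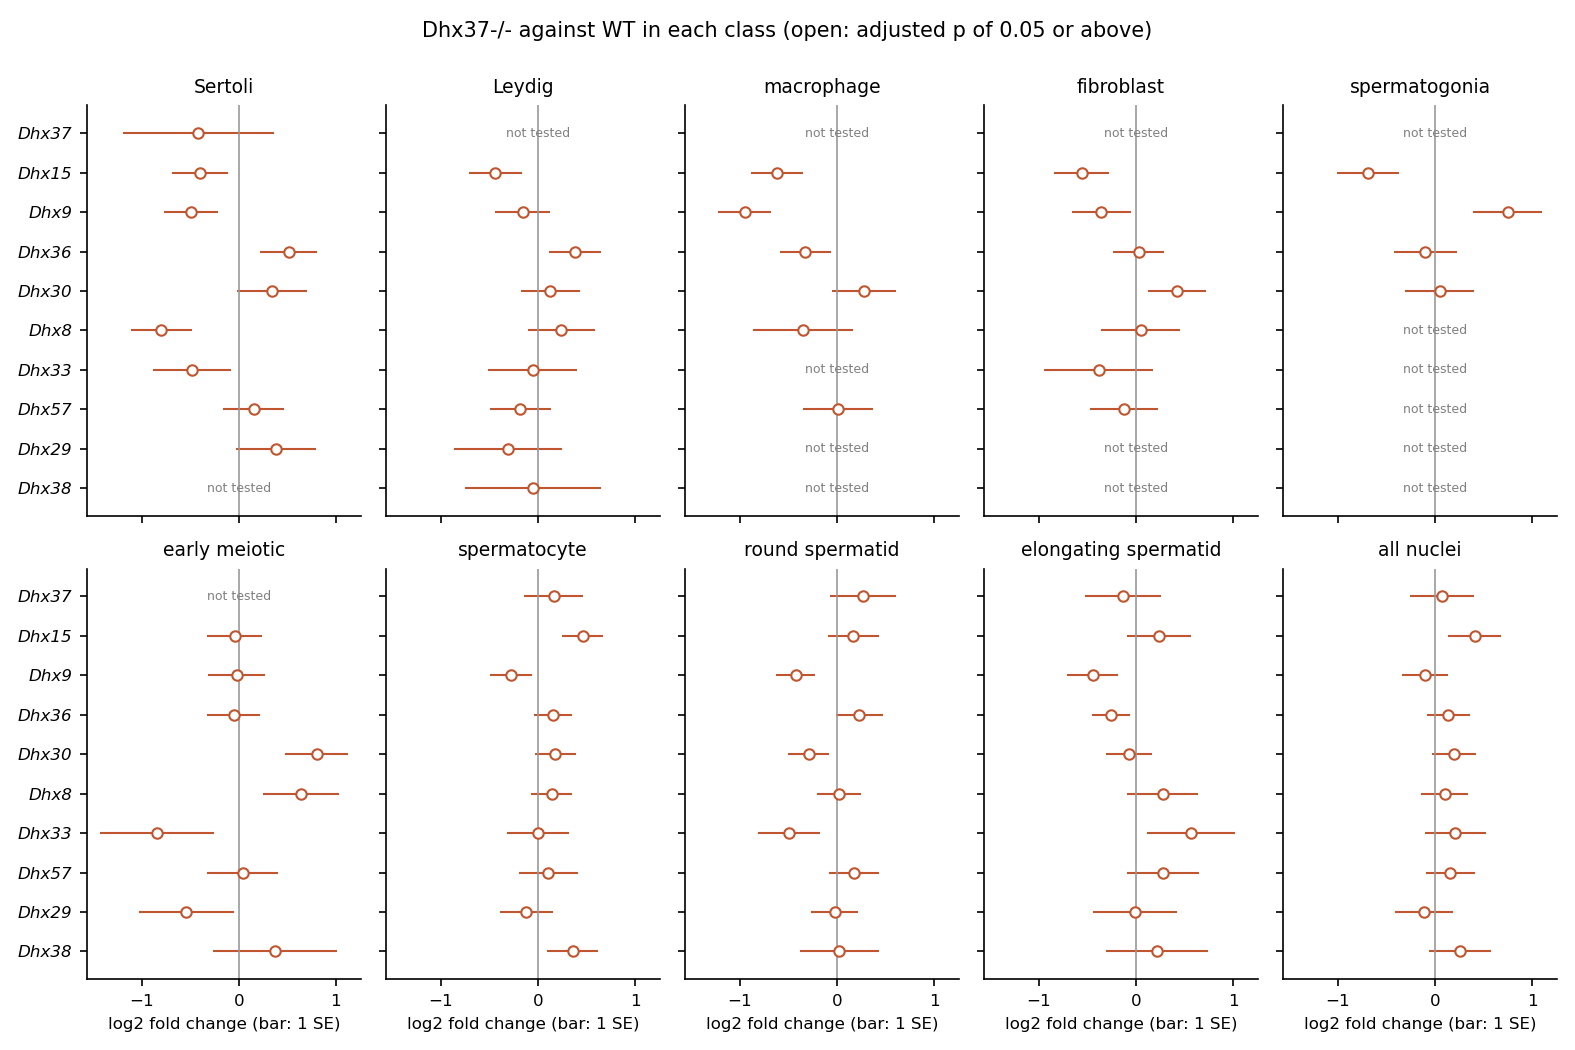
Log2 fold change of each helicase gene between Dhx37-/- and WT libraries, with 1 SE, in the 9 classes and over all nuclei (edgeR, 2 libraries per genotype). Every point is open, which means an adjusted p of 0.05 or above. *Dhx37* in Sertoli-like nuclei lies at -0.42 with an SE of 0.77.

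Free RNA, taken from barcodes with too few UMIs to be nuclei, differed from the nuclei in 5 of 10 members, with 4 higher and 1 lower (69.2% of all genes called, 31.8% higher and 37.4% lower). Without TMM 3 were higher and 3 lower, and the share of all calls that were higher went from 46.0% to 34.7%. *Dhx15* was at 67.6, 52.5, 57.1 and 70.3 CPM in free RNA against 36.4, 25.8, 42.2 and 45.8 CPM in all nuclei, a difference of 1.02 ± 0.14 (log2, SE, edgeR adjusted p = 1.8e-05). *Dhx38*, at 0.98 ± 0.15, and *Dhx30*, at 0.87 ± 0.14, were higher as well (edgeR adjusted p = 5.6e-05 and 8.0e-05). *Dhx57* was lower in free RNA, at 17.9, 11.9, 9.75 and 13.6 CPM against 23.5, 30.7, 33.6 and 30.7 CPM in all nuclei (-0.89 ± 0.18, edgeR adjusted p = 0.00065). *Dhx37* had 92, 36, 56 and 62 UMIs in free RNA, or 7.05, 5.20, 4.92 and 6.55 CPM, against 7.06, 11.8, 10.4 and 10.6 CPM in all nuclei. Its level was nearly equal in WT replicate 1 and lower in free RNA in the other libraries, without passing (-0.44 ± 0.20, edgeR adjusted p = 0.067). Without TMM *Dhx37* at -0.72 and *Dhx36* at -0.60 joined *Dhx57* among the members called lower. *Dhx8* passed at 0.42 ± 0.14 (edgeR adjusted p = 0.015), with 2 of 4 libraries higher. These were the WT libraries, at 36.87 and 36.86 CPM in free RNA against 27.1 and 28.7 CPM in all nuclei. Both Dhx37-/- libraries were lower in free RNA, at 28.2 and 30.1 CPM against 31.6 and 31.97 CPM. *Dhx8* lost the call without TMM, without the filter on low counts, and without WT replicate 2 or Dhx37-/- replicate 2.

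The known activator of DHX37 is encoded by a pair of genes in the mouse, the X-linked *Utp14a* and *Utp14b*, an autosomal retrocopy known to be needed for spermatogenesis, and both were listed with the partners of the family. They lay far apart in Sertoli-like nuclei, and the gap was not compared between classes. *Utp14a* was at 74.0, 74.0, 94.7 and 111 CPM in Sertoli-like nuclei, where *Utp14b* had 0, 0, 2.56 and 3.80 CPM. *Utp14a* was higher in Sertoli-like than in other somatic nuclei by 1.62 ± 0.19 (log2, SE, edgeR adjusted p = 3.3e-10) and *Utp14b* lower by -1.61 ± 0.45 (edgeR adjusted p = 0.0029). In somatic against germ classes *Utp14a* was higher by 1.99 ± 0.14 (edgeR adjusted p = 5.2e-18) and *Utp14b* lower by -0.89 ± 0.20 (edgeR adjusted p = 6.6e-05).

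Along the germ line *Utp14a* fell early. It was at 28.9, 33.6, 74.0 and 74.7 CPM in spermatogonia-like nuclei, 23.7, 0, 13.7 and 15.6 CPM in early meiotic-like nuclei and 4.85, 3.97, 4.97 and 4.70 CPM in spermatocyte-like nuclei. The fall into the early meiotic-like class was 1.93 ± 0.35 on the log2 scale (SE, edgeR adjusted p = 4.6e-05). It was smallest in WT replicate 1, from 28.9 to 23.7 CPM, and whether it differed between genotypes was not tested. The WT sums rest on few nuclei, 33 and 23 in the spermatogonia-like and 71 and 31 in the early meiotic-like class. *Utp14b* was at 43.3, 56.0, 31.7 and 38.2 CPM in spermatogonia-like, 37.9, 41.9, 31.5 and 20.1 CPM in early meiotic-like and 16.0, 11.2, 16.6 and 18.2 CPM in spermatocyte-like nuclei, and it was not called at the first step (-0.42 ± 0.35, edgeR adjusted p = 0.44). From spermatocyte-like to round spermatid-like nuclei *Utp14a* rose by 1.42 ± 0.23 on the log2 scale (edgeR adjusted p = 6.9e-07), from 4.62 to 7.63 CPM on average. The call held under all 3 scalings, with a value of 0.68 without TMM and 1.30 with DESeq2. Neither gene was called between genotypes in any class in which it was tested. *Utp14a* was higher in both Dhx37-/- libraries than in both WT libraries in Sertoli-like nuclei (0.39 ± 0.31, edgeR adjusted p = 0.75) and spermatogonia-like nuclei (1.11 ± 0.55, edgeR adjusted p = 0.30). Reads that the 2 copies share cannot be assigned to either with certainty.

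**Figure D5:**
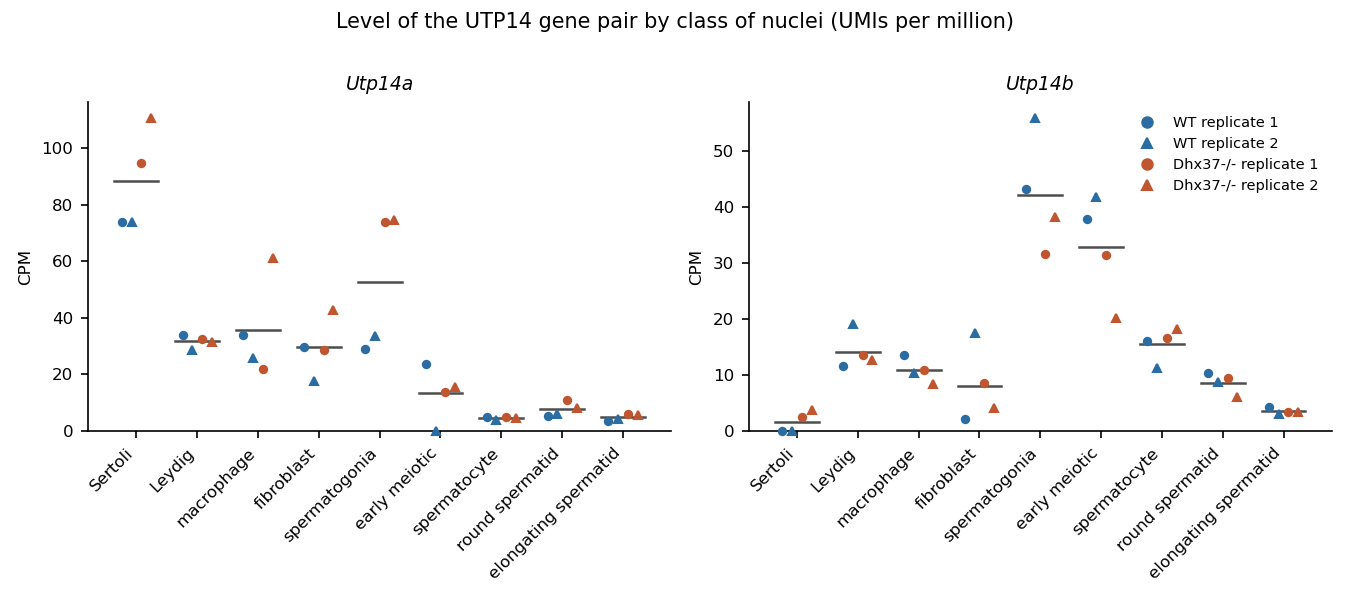
Level (CPM) of *Utp14a* and *Utp14b* in the 9 classes, 1 point per library and a line at the mean of 4. In Sertoli-like nuclei *Utp14a* lies between 74.0 and 111 CPM and *Utp14b* between 0 and 3.80 CPM.

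The other listed genes give the surroundings of the family. Of 23 activators and partners, mostly G-patch proteins, 22 were tested between classes, and in Sertoli-like against other somatic nuclei 13 were higher and 1 was lower (44.0% of all genes called). The largest differences there were *Gpatch8* at 2.10 ± 0.14, *Gpatch4* at 1.66 ± 0.26 and *Utp14a* (log2, SE). Into spermatocyte-like nuclei 14 activators and partners were lower and 1 was higher (62.1% of all genes called), led by *Gpatch1* at -3.62 ± 0.34 and *Rbm17* at -2.13 ± 0.26. Into elongating spermatid-like nuclei 12 were lower and 2 higher (66.2% of all genes called, 31.8% higher and 34.3% lower). With DESeq2 11 were lower and 4 higher. *Pinx1*, which encodes a nucleolar G-patch protein that binds telomerase, rose by 3.02 ± 0.25 on the log2 scale at that step.

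Of the 18 genes of the U3 snoRNP and the small subunit processome, the assembly on which DHX37 acts, 4 were lower and none was higher from spermatogonia-like to early meiotic-like nuclei (22.3% of all genes called, 10.4% higher and 11.9% lower). The 3 with the largest changes were *Rrp9* at -1.67 ± 0.46, *Nop56* at -1.64 ± 0.46 and *Fbl*, the methyltransferase of the box C/D snoRNPs, at -1.11 ± 0.25 (log2, SE). Into spermatocyte-like nuclei 10 were lower and 2 higher (62.1% of all genes called), with *Rcl1* at -2.30 ± 0.40. In Sertoli-like against other somatic nuclei 5 were higher and 1 lower (44.0%), with *Rrp9* at 1.84 ± 0.27, *Nop14* at 1.08 ± 0.20 and *Imp3* at -1.09 ± 0.25, and 3 were higher without TMM and with DESeq2. In free RNA against nuclei 16 of 18 were higher and 1 was lower (69.2% of all genes called, 31.8% higher), and 14 were higher without TMM. Between genotypes the 14 tested in Sertoli-like nuclei had a median difference of 0.35, where that of all genes was 0.00, and an edgeR adjusted p of at least 0.67. The shift was not particular to that class. The median of the list ran from 0.17 in spermatocyte-like to 0.34 in elongating spermatid-like nuclei among the other classes, and was 0.47 over all nuclei. Nor was it particular to the list. Over all nuclei the median was 0.45 for the DEAD-box helicases described below and 0.43 for activators and partners. It was 0.15 for the members and 0.08 for the other DEAH and related helicases. In Sertoli-like nuclei these 4 medians were 0.215, 0.17, -0.40 and -0.08.

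Among 9 other DEAH and related helicases, *Dhx32* stood out in Sertoli-like nuclei at 1.82 ± 0.21 over other somatic nuclei (log2, SE, edgeR adjusted p = 2.6e-10), and *Tdrd9*, a helicase of the piRNA pathway, was lower in somatic than in germ classes by -2.60 ± 0.13 (edgeR adjusted p = 1.1e-23). *Ythdc2*, which is required at the entry into meiosis, fell by 2.32 ± 0.21 on the log2 scale from early meiotic-like to spermatocyte-like nuclei (edgeR adjusted p = 4.4e-13). Of 37 DEAD-box helicases, the neighbouring family, 36 were tested between classes. Into elongating spermatid-like nuclei 11 of these were higher and 2 lower, where 1 DEAH member was higher and 6 were lower, and the difference between the lists was not tested (66.2% of all genes called, 31.8% higher and 34.3% lower). With DESeq2 17 DEAD-box genes were higher. *Eif4a2* was at 2.02 ± 0.16 and *Ddx54* at 2.05 ± 0.20 at that step (log2, SE).

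The genotype calls among all listed genes lay in 2 classes. *Ddx24* was higher in Dhx37-/- spermatogonia-like nuclei by 1.44 ± 0.42 (log2, SE, edgeR adjusted p = 0.039, 7.79% of all genes called, 0.317% higher and 7.47% lower). In early meiotic-like nuclei (15% of all genes called, 4.8% higher and 10.2% lower) *Sugp2* at 1.43 ± 0.32, *Ddx39a* at 2.42 ± 0.45 and *Ddx18* at 2.02 ± 0.58 were higher and *Ddx3y* at -1.55 ± 0.48 was lower (edgeR adjusted p = 0.012, 0.0054, 0.033 and 0.046). In both classes a larger share of WT than of Dhx37-/- nuclei lay outside the early meiotic cluster, and the part of that in these calls was not tested.

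The genes whose levels were most like those of *Dhx37* were found over 36 points, 9 classes in 4 libraries, among 13776 genes with a mean of at least 10 CPM. On the scale of log2(CPM + 1) they were *Flrt3* (Pearson's r = 0.87), *Rad9b* (0.77), *Exd1* (0.75), *Gm49309* (0.75) and *Gen1* (0.74). Among the other 9 members the closest were *Dhx29* (0.52, rank 472) and *Dhx8* (0.49, rank 598), and *Dhx15* (0.04) was the least like it. Of the other DEAH and related helicases *Dhx40* (0.59) and *Tdrd9* (0.54) were closer than any member. The points of a library share its depth and preparation, and many points of *Dhx37* rest on few UMIs, so these values are a description.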

How the data were processed

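Nuclei of whole testes were profiled with a 3′ droplet assay in 2 WT and 2 Dhx37-/- libraries. The authors deposited unfiltered raw UMI count matrices per library, which their file headers tie to Cell Ranger, and the submitters' processing notes also name Seurat 3.1.1, GRCm38 and mm10, whereas the study's methods name a newer mouse build. The counting of introns and the strand setting are not given in the sources used here. Coordinates and sequences are from GENCODE M21 on GRCm38, matched by gene and not used with positions from the count files.

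Barcodes were kept as nuclei with at least 500 UMIs, 500 to 5000 genes and at most 25% mitochondrial UMIs, above a depth limit or different from free RNA at an FDR of 0.01 (10000 simulations). Free RNA was the sum of barcodes ranked 45000 to 90000 by depth. The kept nuclei held 31462105 to 45227325 UMIs per library. Nuclei were classed by 150 markers, with limits set after the data had been seen. Each nucleus needed at least 3 UMIs of at least 2 markers and a posterior of 0.9. Its depth had to reach the median UMIs of its library divided by 3. The somatic, spermatogonia-like and early meiotic-like classes (9 of 12) needed at least 3 markers and 3 times the expected marker UMIs. Doublets were scored in each library (3.80% to 4.35%) and removed only as an alternative. Classes with at least 20 nuclei in every library, and the Sertoli-like class whatever its number, were compared.

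UMIs were summed per library and class and tested with edgeR 4.0.16 (quasi-likelihood, filterByExpr, TMM, Benjamini-Hochberg over all genes, threshold 0.05) in R 4.3.3, with library as a term between classes. DESeq2 1.42.0 was an alternative, as were no TMM, no filter on low counts, clusters (scanpy 1.11.5) in place of classes, doublets removed and each library left out. The tests were tried on simulated data. Poisson intervals (95%) and floors of 3 UMIs cover counting error only.

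All 10 members were named, and of the other lists the 3 called genes with the largest change in each comparison, from which the text gives a part, together with *Utp14a* and *Utp14b*. Members and lists were chosen with earlier results of these data known.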

Additional observations from a re-analysis of the deposited data

How the results depend on the processing

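Of 35 calls of members between classes or in free RNA, the 140 values with 1 library left out kept the call in 124 cases and lost it in 16, and the 229 values under other alternatives kept it in 213 and lost it in 16, with no change of direction. From spermatogonia-like to early meiotic-like nuclei the number of members called fell from 1 to 0 without TMM, with DESeq2, without the filter on low counts, with doublets removed and without the library term, and was 0 to 1 with a library left out; clusters gave no value there because none was named spermatogonia. From spermatocyte-like to round spermatid-like nuclei 9 members were called without TMM, against 5. Between genotypes 0 to 2 pairs of member and class were called with a library left out, and 0 to 1 members over all nuclei. Those calls were *Dhx30* in early meiotic-like and *Dhx15* in spermatocyte-like nuclei and *Dhx15* over all nuclei without WT replicate 1, and *Dhx57* in spermatocyte-like nuclei without WT replicate 2; the same fits called 10.3%, 20.1%, 19.4% and 24.7% of all genes. The genotype difference of *Dhx37* in Sertoli-like nuclei ran from -1.43 to 0.13 (log2) with a library left out, and turned to 0.13 without WT replicate 2. The cause of these changes was not tested, and leaving out a library also lowers the number of libraries.

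Replicate numbers did not pair the libraries (correlation of deviations -0.24 over 12524 genes), which share only a number. With a replicate block *Dhx37* in Sertoli-like nuclei was at -0.45 and 0 members were called in any class or over all nuclei, while the count of all genes called went from 1388 to 1052 in early meiotic-like and from 4 to 33 in macrophage-like nuclei. With the numbers crossed, a pairing chosen after seeing the data, 0 members were called, and all genes called numbered 2490 in spermatocyte-like nuclei and 991 over all nuclei, against 0 in both. Depth limits *Dhx37* and *Dhx38* in Sertoli-like nuclei, with 3 to 14 and 0 to 18 UMIs per sum.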

Other observations

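T cell-like, endothelial-like and peritubular myoid-like nuclei were too few to be compared, with 75, 155 and 201 nuclei in all. *Dhx37* had 1, 3 and 6 UMIs in them over the 4 libraries. *Dhx36* was at 118, 153, 149 and 147 CPM in peritubular myoid-like nuclei (32, 10, 50 and 26 UMIs).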
